A study of Mus musculus with 11 samples.

Results

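H3K79me2 was compared between cardiomyocytes of newborn mice and mouse embryonic stem (mES) cells over 10760 regions. These are all regions on chromosomes 1 to 19 in the authors' deposited comparison of the 2 libraries, out of 11013 in that table. The others lie on chromosome X (246), on chromosome Y (4) and on unplaced sequence (3). The authors' lists of enriched stretches (islands called with SICER) were set beside them, with 17697 neonatal and 24099 mES H3K79me2 islands on the same chromosomes.

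H3K79me2 is dimethylation of lysine 79 of histone H3, a residue on the surface of the nucleosome core. It is placed by the methyltransferase DOT1L, which travels with elongation factors, and it lies over the first part of transcribed genes. H3K4me3 marks promoters, H3K27me3 is the Polycomb mark of silenced developmental genes, and H3K9me3 marks heterochromatin. In embryonic stem cells many developmental promoters carry H3K4me3 and H3K27me3 together.

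The neonatal cells were cardiomyocytes of 1-day-old mice, purified after enzymatic digestion, and the adult cells, used here only beside them, came from the left ventricle of mice of 2 months. The series holds 11 samples, of which 8 are immunoprecipitated libraries of 4 marks at 2 stages and 3 are inputs. No genotype, strain or treatment difference between the stages is named in the labels. The mES reads are no sample of the series: the description deposited with the tables takes them from another study, so cell type and source of the data cannot be told apart in any value below. With 1 library per cell type and mark there is no replicate check of any difference, and no test was made. No expression was measured and the regions carry no gene names, so the purity of the cells could not be checked against marker genes.

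Every region in the deposited table has a false discovery rate below 0.01, a rate that compares the reads of the 2 libraries and not the cell types. The listed regions held 1518383 neonatal reads, of which 14.9% fell in chr2:98502200-98507599 alone. Reads piled up at more than 50 times the median density in 25 regions, which took 19.3% of the neonatal reads, and all 25 were listed as higher in neonatal cells. They are left out of the named regions. Coordinates are those of mouse build mm9.

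H3K79me2 was higher in neonatal cells at 5160 regions and lower at 5600, so 48.0% of the listed regions were higher. The difference, neonatal minus mES on the log2 scale of normalised reads, had a median of -0.43 and a median size of 2.25. At least 4-fold higher were 3232 regions, 30% of those listed, and at least 4-fold lower were 2568, or 23.9%. A further 1928 were higher and 3032 lower by less than 4-fold. The least difference listed was 0.11 on the log2 scale.

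Many of the large differences had 1 library at the lowest value of its column, which was taken as 1 read and is called the floor here. The mES value was at its floor in 2345 of the regions at least 4-fold higher (72.6%). The neonatal value was at its floor in 1457 of the regions at least 4-fold lower (56.7%). The 4-fold counts take the floor as 1 read, as deposited. If it is counted as 3 reads, 2768 regions were at least 4-fold higher and 2323 at least 4-fold lower. Folds for single regions below use the floor of 3 reads per library. They are given as "at least" only where the cells at the floor had no H3K79me2 island in the region. With both values above the floor, 887 regions were at least 4-fold higher and 1111 at least 4-fold lower, so the larger of the 2 counts changes sides.

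**Figure D1:**
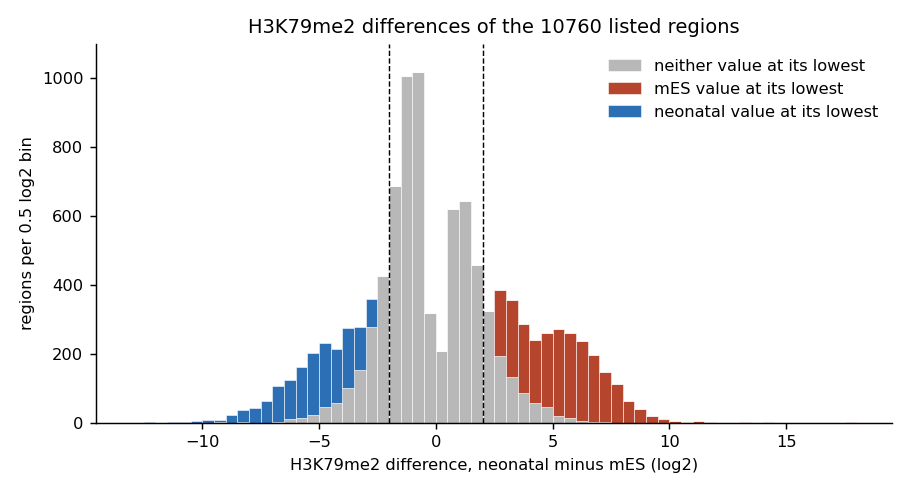
Number of regions (vertical axis) by H3K79me2 difference, neonatal minus mES, in bins of 0.5 on the log2 scale, with dashed lines at 4-fold in each direction. The bars beyond 4-fold are largely regions with the mES value (2345) or the neonatal value (1457) at its lowest, and the bars between the lines have neither.

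The regions were broad, with a median width of 9000 bp and a range of 63 to 164200 bp. Among the listed regions, those with a small difference were broader than those with a large one. The median was 8200 bp for regions at least 4-fold higher and 10800 bp for those higher by less. It was 11600 bp for regions lower by less than 4-fold and 6400 bp for those at least 4-fold lower. Median neonatal reads per region were 53, 104, 90.5 and 1 in the same order. Every listed region had passed the false discovery rate of the table, which a small difference meets more easily with many reads. Wide regions can hold more reads, so the listing itself favours wide regions among the small differences. The order of widths and reads is therefore a description of the listed regions only.

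The island lists are a separate call on each library, though from the same reads. Neonatal H3K79me2 islands covered 113 Mb with a median width of 4400 bp, and mES islands covered 118 Mb with a median of 2800 bp. The covered length was thus close, in fewer and wider neonatal islands. Of the neonatal islands, 67.1% (95% Wilson interval 66.4 to 67.8) shared at least 1 bp with an mES island, and 52.7% (52.1 to 53.4) of mES islands did so with a neonatal one. With both lists cut to islands of at least 5 kb the order turned, at 56.3% of neonatal and 60.5% of mES islands. These shares leave out overlaps with narrower islands of the other cell type. The shared sequence came to 65.2 Mb, which is 57.6% of the neonatal and 55.2% of the mES covered length. These intervals, like all others here, cover counting error only.

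Wide islands were shared more often than narrow ones in both lists. Among islands of at least 20 kb, 87.7% of 657 neonatal and 91.0% of 735 mES islands were shared. Under 2 kb the shares were 58.3% of 1040 neonatal and 34.0% of 7474 mES islands. In 9682 pairs in which each island was the other's best overlap, neonatal islands were 5400 bp and mES islands 5200 bp wide at the median. The neonatal island was at least 2 times as wide in 2172 pairs and the mES island in 1466.

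**Figure D2:**
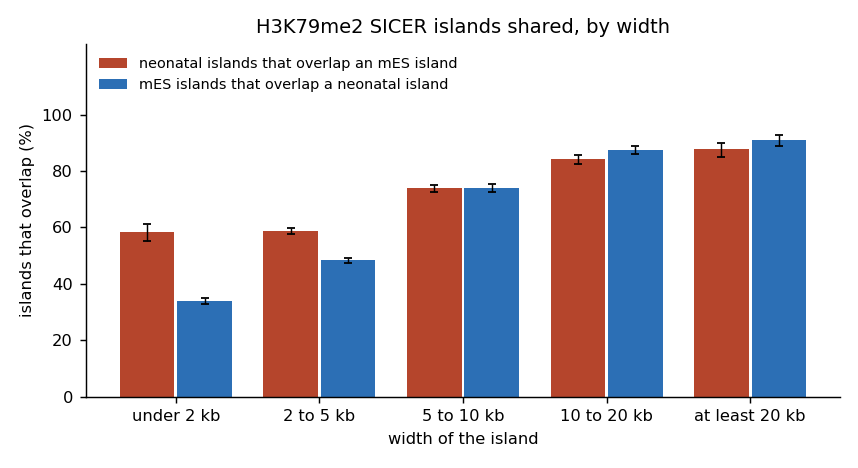
Share of H3K79me2 islands that overlap an island of the other cell type (vertical axis, percent) by width of the island, for neonatal islands on the left of each pair and mES islands on the right, with 95% Wilson intervals. The neonatal shares go from 58.3% under 2 kb to 87.7% at 20 kb or more, and the mES shares from 34.0% to 91.0%.

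The widest islands of both lists lay in the same stretch of chromosome 8. The neonatal island at chr8:125421400-125565399 spanned 144000 bp and was covered to 100% by mES islands. The mES island at chr8:125418000-125570199 spanned 152200 bp and was covered to 97.4% by neonatal islands. That stretch held 3233 neonatal reads and differed by -0.87, so it was listed as lower in neonatal cells although both had the island. Another pair of wide islands on chromosome 8, neonatal chr8:34937400-35039799 and mES chr8:34905200-35024599, was covered to 99.2% and 99.0% by the other cell type.

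Other wide islands were not shared to that degree. The neonatal island at chr12:72931400-73036799 (105400 bp) was covered to 40.6% by mES islands and its region was higher by 3.09 on the log2 scale. The neonatal island at chr3:27483600-27608799 (125200 bp) was covered to 64.7%, with a difference of 1.72. On the mES side, the island at chr15:61867600-62006599 (139000 bp) was covered to 23.9% by neonatal islands. Its region held 415 neonatal reads and was lower by 3.17, as a difference of -3.17. No island among the 5 widest of either list overlapped an H3K27me3 island of either cell type. Such overlap was rare in general among islands shared by the cell types. Of all shared neonatal islands, 1.41% overlapped a neonatal and 7.31% an mES H3K27me3 island, and of shared mES islands 1.41% and 7.45%.

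At the table's regions the islands went with the read values, which come from the same libraries. Regions at least 4-fold higher held a neonatal island in 78.9% and an mES island in 40.7%. Regions at least 4-fold lower held a neonatal island in 22.9% and an mES island in 99.6%. Over all regions the shares were 71.3% for neonatal and 82.0% for mES islands, so the neonatal share at the higher regions lies near that of all regions. Above the floor, regions at least 4-fold higher held a neonatal island in 96.7% and an mES one in 84.8%, and regions at least 4-fold lower in 47.3% and 100%.

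Coverage was likewise uneven. In the median region at least 4-fold higher, neonatal islands covered 69.6% of the length and mES islands 0%. In the median region at least 4-fold lower, neonatal islands covered 0% and mES islands 89.5%. In regions at least 4-fold higher with the mES value above its floor, the medians were 86.7% for neonatal and 31.3% for mES islands.

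The lists and the reads did not always match. Neither cell type had an H3K79me2 island in 518 of the regions at least 4-fold higher (16.0%), and 163 more (5.04%) had an mES island only. Among regions with the mES value at its floor, 24.1% still held an mES island. Among regions with the neonatal value at its floor, 4.32% held a neonatal island. A floor value therefore does not show that the mark was absent.

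The other 3 marks come from libraries that played no part in choosing the regions. H3K27me3 in mES cells differed between the directions. Regions at least 4-fold higher in neonatal H3K79me2 held a neonatal H3K27me3 island in 10.8% (9.74 to 11.9) and an mES H3K27me3 island in 42.6% (40.9 to 44.3). Regions at least 4-fold lower held one in 15.1% of cases in neonatal and 12.4% in mES cells. Over all 10760 regions the shares were 8.36% in neonatal and 20.1% in mES cells. Regions with a floor value held much of this. Above the floor, regions at least 4-fold higher held the island in 2.48% in neonatal and 24.9% in mES cells, and regions at least 4-fold lower in 7.38% and 6.93%. The shares of all regions include floor regions, so they are no like measure for these. Regions with the neonatal value at its floor held a neonatal H3K27me3 island in 21.1%. Those with the mES value at its floor held an mES one in 49.3%.

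**Figure D3:**
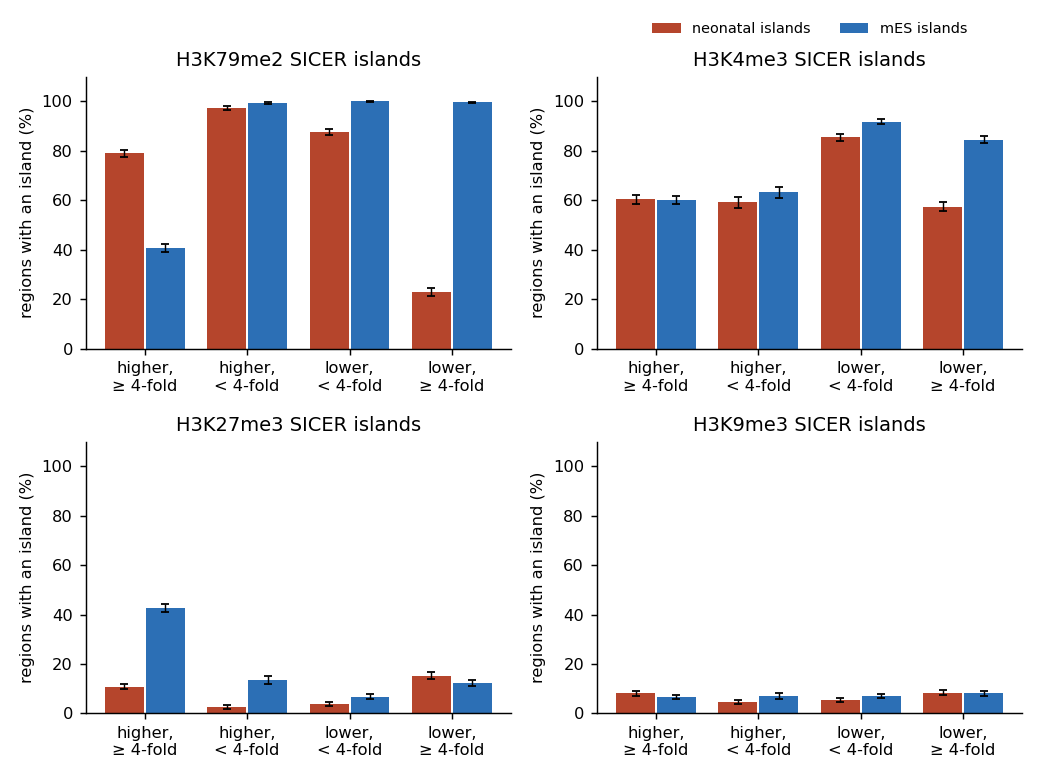
Share of regions with an island of each mark (vertical axes, percent) for regions higher or lower in neonatal H3K79me2, by size of the difference. Neonatal islands are on the left of each pair and mES islands on the right, with 95% Wilson intervals. The tall mES bar of H3K27me3, 42.6%, stands at the regions at least 4-fold higher, where the neonatal bar is at 10.8%.

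Read from the side of H3K27me3, 1637 regions had an island of that mark in mES cells and none in neonatal cells. Of these, 80.9% (78.97 to 82.8) were higher in neonatal H3K79me2, with a median difference of 3.57, and 67.1% were at least 4-fold higher. Where neither cell type had an H3K27me3 island, 41.8% (40.8 to 42.9) of 8224 regions were higher. Where neonatal cells alone had one, 22.6% (18.7 to 27.1) of 376 were higher, the median difference was -3.14 and 59.3% were at least 4-fold lower. Regions with the Polycomb mark in 1 cell type were thus mostly higher in H3K79me2 in the other.

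The order of these shares did not rest on floor values, although their size did. With both values above the floor, the shares were 67.2% of 640 regions with an H3K27me3 island in mES cells only and 38.3% of 6052 with none. In the 143 such regions with a neonatal island only, 14.0% were higher. The median differences in these 3 sets were 1.14, -0.74 and -1.52. The 523 regions with an H3K27me3 island in both cell types depended on the floor for their direction: 59.3% were higher over all of them, but 39.8% of the 123 above both floors.

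The more of a region the mES H3K27me3 islands covered, the more often H3K79me2 was higher in neonatal cells, among regions with no neonatal H3K27me3 island. With under 2 kb covered, 58.6% (52.6 to 64.4) of 261 regions were higher. The share was 78.6% of 780 regions at 2 to 5 kb, 92.1% of 416 at 5 to 10 kb and 97.8% (94.4 to 99.1) of 180 at 10 kb or more. The median difference went from 0.95 to 6.68 over these 4 steps. With both values above the floor, the shares were 51.4% of 148, 67.0% of 330, 80.3% of 132 and 90% of 30 regions. The median differences there were 0.33, 1.14, 1.98 and 1.74, so their rise was smaller and did not continue to the last step. Region width moved with the steps, with medians of 7596 bp at the first and 23100 bp at the last, and its part was not tested over them. Within each quartile of region width, the share among all regions with an mES H3K27me3 island only lay between 78.0% and 84.6%.

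**Figure D4:**
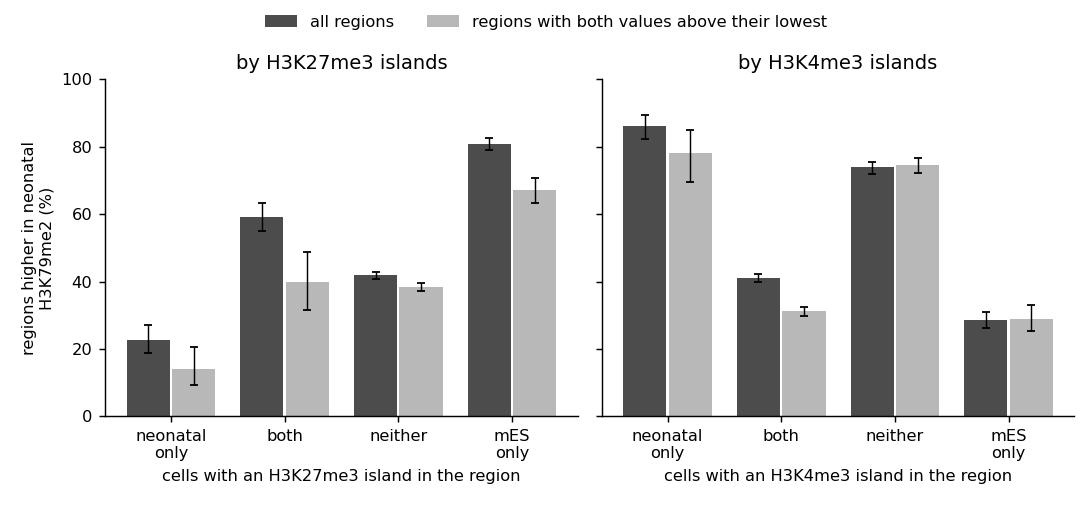
Share of regions higher in neonatal H3K79me2 (vertical axis, percent) by which cells have an H3K27me3 island (left) or an H3K4me3 island (right) in the region. Dark bars are all regions and light bars those with both values above their lowest, with 95% Wilson intervals. The share is 80.9% with H3K27me3 in mES cells only and 22.6% with H3K27me3 in neonatal cells only.

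Promoter marking was part of the picture at most regions, with H3K4me3 islands in both cell types in 6799 of 10760. Regions with H3K4me3 in both cell types and H3K27me3 in mES cells only numbered 1336. The islands of these marks need not overlap within a region, so joint marking of a promoter was not measured. Of these, 80.2% (77.9 to 82.2) were higher in neonatal H3K79me2, with a median difference of 3.40. Above both floors, 67.3% of 594 were, with a median of 1.12. Regions with H3K4me3 in both and no H3K27me3 numbered 4870, and 30% (28.7 to 31.3) of them were higher, with a median of -0.96, and 26.1% of 4086 above both floors. Where H3K4me3 was in mES cells only and H3K27me3 in neonatal cells only, 13.6% of 110 were higher and 84.5% were at least 4-fold lower. Both values were above the floor in 17 of them, of which 5.88% were higher.

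H3K4me3 itself went with H3K79me2. Where neonatal cells alone had an H3K4me3 island, 86.2% (82.3 to 89.4) of 356 regions were higher in H3K79me2. Where mES cells alone had one, 28.6% (26.2 to 31.1) of 1313 were. Regions with islands in both were higher in 41.0% of cases, and in 31.2% with both values above the floor.

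The length of H3K4me3 followed as well, in regions with H3K4me3 islands in both cell types. In 1679 such regions at least 4-fold higher in H3K79me2, H3K4me3 islands covered a median of 3200 bp in neonatal and 2400 bp in mES cells. In 1438 such regions at least 4-fold lower, they covered 2400 bp in neonatal and 3600 bp in mES cells. Neonatal coverage was at least 2 times the mES coverage in 22.2% of the first set and 3.62% of the second. The reverse held in 7.44% and 35.7%. Over all 6799 regions with H3K4me3 islands in both, the medians were 2800 bp in neonatal and 3200 bp in mES cells. Neonatal coverage was at least 2 times the mES coverage in 8.69% of them, and the reverse held in 23.0%.

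Regions without any H3K4me3 island were higher more often than those with islands in both cell types or in mES cells only. They were higher less often than the 86.2% of regions with a neonatal island only. There were 2292 without an island. Of these, 73.9% (72.0 to 75.6) were higher in neonatal H3K79me2, a share of 74.6% with both values above the floor. Of the 1693 that were higher, 1563 held a neonatal H3K79me2 island and 1004 an mES one. Of the 599 that were lower, 160 held a neonatal island and 598 an mES one. The median distance from the higher ones to the nearest neonatal H3K4me3 island was 17201 bp, and 31.6% lay within 10 kb of one. For the lower ones these were 16201 bp and 33.1%, nearly the same.

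H3K9me3 did not separate the directions. Regions with a neonatal H3K9me3 island made up 8.08% of those at least 4-fold higher and 8.26% of those at least 4-fold lower. An mES H3K9me3 island was found in 6.62% and 8.06% of them. Above the floor, a neonatal island was found in 4.51% and 5.94%. By which cells had the island, 44.2% to 51.4% of regions were higher in H3K79me2.

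The authors' deposited tables for the other marks gave read values at many of the same places. The neonatal H3K27me3 value was listed as higher than mES in 48.3% of all regions of its own table, and as at least 4-fold lower in 49.4%. Over all 3072 H3K79me2 regions that overlap a listed H3K27me3 region, 23.2% were higher in H3K27me3 and 75.3% were at least 4-fold lower. At the 1480 regions at least 4-fold higher in H3K79me2 that overlap a listed H3K27me3 region, 18.4% (16.6 to 20.5) were higher in H3K27me3 and 78.6% were at least 4-fold lower. The median H3K27me3 difference there was -3.02, against -2.82 over the 3072. These values thus lie near those of all regions listed for both marks. With the mES H3K79me2 value above its floor, 9.56% of 293 were higher, with a median of -3.13. At the 539 such regions at least 4-fold lower in H3K79me2, 63.5% (59.3 to 67.4) were higher in H3K27me3, with a median of 2.01.

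The floor bears on these H3K27me3 values. The neonatal H3K27me3 value stood at 1 read in 1137 of the 1480 regions. Of the regions at least 4-fold lower in H3K79me2 but above the neonatal floor, 38.3% of 183 were higher in H3K27me3. That is below the 48.3% of the whole H3K27me3 table. It is above the 23.2% of all 3072 H3K79me2 regions listed for both marks, which include regions at a floor. Over all 3072 regions listed for both marks, 54.0% were higher in H3K79me2 and lower in H3K27me3, and 13.1% the other way round. Both marks were higher in 10.1% and both lower in 22.9%. Of the 3072, 2360 were lower in H3K27me3 and 2280 stood at 1 neonatal H3K27me3 read. These shares by themselves therefore do not show that the marks moved in opposite directions. H3K27me3 was higher in 7.58% of 488 regions that were higher in H3K79me2 by less than 4-fold. At regions lower in H3K79me2 by less than 4-fold, it was higher in 10.6% of 565.

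For H3K4me3, 48.7% of all regions of the deposited table were higher in neonatal cells, and 38.4% of the 6602 H3K79me2 regions that overlap one. At regions at least 4-fold higher in H3K79me2 the share was 65.7% (63.6 to 67.8) of 1999, and the median H3K4me3 difference was 0.99. It was 48.1% at regions higher by less, 21.7% at regions lower by less than 4-fold and 17.6% (15.9 to 19.6) of 1644 at those at least 4-fold lower, where the median was -1.49. For H3K9me3 the share was 49.3% over its table and 35.3% over the 5335 H3K79me2 regions that overlap it. It was 43.2% at regions at least 4-fold higher in H3K79me2 and 41.3% at those at least 4-fold lower, against 27.9% and 27.1% at the regions with smaller differences.

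The 10 largest rises among regions with neonatal H3K79me2 and H3K4me3 islands all had the mES value at its floor. An mES H3K79me2 island still lay in 6 of them, so the folds of these 6 may be no lower bounds and are given without "at least". The first was chr1:73986400-74115799, a stretch of 129400 bp with 2646 neonatal reads (exact Poisson 95% interval 2546 to 2749). Its difference was 11.31, or 848-fold higher with the floor counted as 3 reads. Neonatal H3K79me2 islands covered 96.6% of it and mES islands 3.09%. H3K27me3 islands covered 0 bp of it in neonatal and 35600 bp in mES cells, and H3K4me3 islands 39000 bp in neonatal and 6000 bp in mES cells.

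The region chr8:11241000-11362799 followed, with 2334 neonatal reads and at least 748-fold more H3K79me2. Its H3K27me3 islands covered 0 bp in neonatal and 64800 bp in mES cells. At chr14:63817200-63892199 there were 2139 neonatal reads, at least 685-fold more, and H3K4me3 islands covered 41800 bp in neonatal against 12600 bp in mES cells. At chr14:26269800-26390399, with 2051 reads and 657-fold more, H3K27me3 islands covered 0 bp in neonatal and 75800 bp in mES cells. These 4 regions were all covered to over 90.5% by neonatal H3K79me2 islands.

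The other 6 held fewer reads. They were chr4:57576600-57654399 with 1644 neonatal reads (527-fold) and chr7:119366000-119435399 with 1312 (420.3-fold). The region chr6:118845400-118916199 had 1168 reads (at least 374-fold) and chr11:118052200-118110956 had 1094 (350.4-fold). The last pair was chr1:167593800-167640599 with 958 reads (at least 307-fold) and chr2:163190200-163226599 with 929 (at least 298-fold).

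All 10 rises held an mES H3K27me3 island, of 1600 to 75800 bp, and none held a neonatal or an adult one. Over all regions with the mES value at its floor, 49.3% held an mES, 13.9% a neonatal and 13.6% an adult one. The rises were wide, with a median of 72900 bp against 9000 bp over all regions, and a wide region meets an island more easily. The deposited H3K27me3 difference was listed at all 10, from -6.85 to -4.46, with 1 neonatal read in each. A neonatal H3K4me3 island was a condition of the choice, so the H3K4me3 values are a description. The mark was listed at 9 and was higher in neonatal cells at 6, with differences of 1.37 to 2.42. At the other 3, among them chr14:26269800-26390399 with -6.89, the listed H3K4me3 region had 1 neonatal read although a neonatal H3K4me3 island lay in each. No rise held a neonatal H3K9me3 island, and 5 held an mES one, against 9.42% and 6.91% of all regions with the mES value at its floor.

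**Figure D5:**
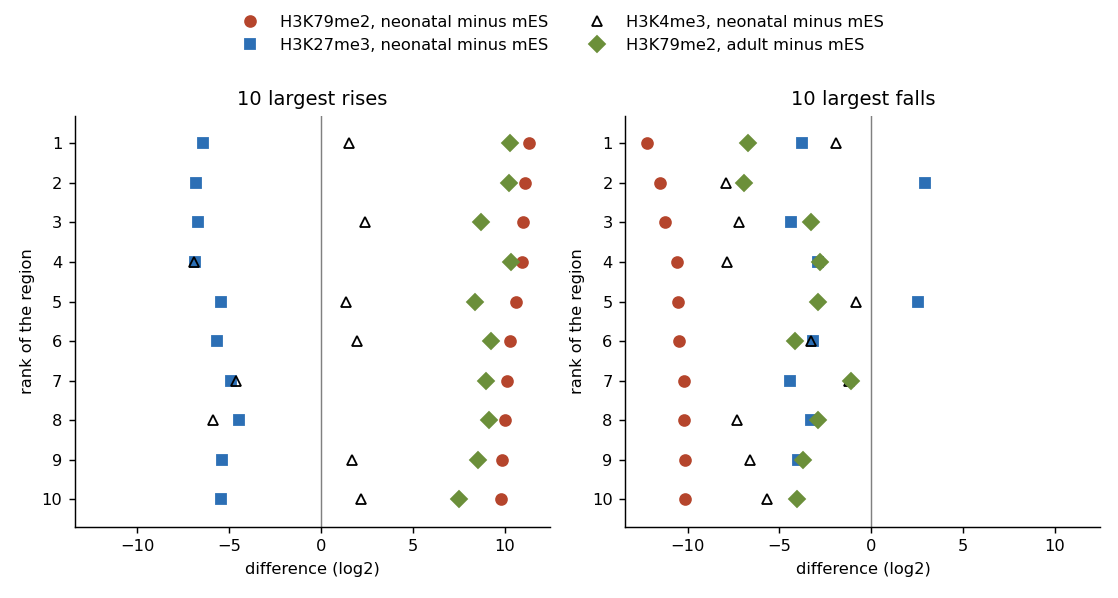
Differences on the log2 scale (horizontal axis) at the 10 largest rises (left) and 10 largest falls (right), 1 row per region by rank, for 3 marks in neonatal minus mES cells and for H3K79me2 in adult minus mES cells. All 10 rises have H3K27me3 differences of -4.46 or below, and the falls have H3K27me3 differences from -4.42 to 2.94. H3K4me3 islands and the H3K79me2 difference were part of the choice of the regions. Symbols missing from a row are values that the deposited tables do not list.

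The 10 largest falls, chosen by mES H3K79me2 and H3K4me3 islands in the same way, all had the neonatal value at its floor of 1 read. The first was chr9:114416998-114480999, 64002 bp wide, with a difference of -12.22, at least 1590.4-fold lower. No neonatal H3K79me2 island lay in it and mES islands covered 100% of it. H3K4me3 islands covered 10002 bp in neonatal and 53600 bp in mES cells. H3K27me3 islands covered 7000 bp in neonatal, 0 bp in mES and 8802 bp in adult cells. The listed H3K27me3 difference there went the other way, at -3.80 with 1 neonatal read. Next came chr8:109124600-109175999, at least 957-fold lower, with H3K4me3 islands over 0 bp in neonatal and 42800 bp in mES cells and H3K27me3 islands over 8600 bp in neonatal and 0 bp in mES cells.

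The region chr10:76551600-76631199, 808-fold lower with the floor counted as 3 reads, was the single fall with a neonatal H3K79me2 island. That island covered 7800 bp, against 79600 bp in mES cells, so the fold may be no lower bound. At chr12:87802000-87840399, at least 506-fold lower, the H3K4me3 islands covered 0 bp in neonatal and 35800 bp in mES cells. At chr12:102221000-102268399 (at least 496-fold lower) H3K27me3 islands covered 10600 bp in neonatal and 0 bp in mES cells. The remaining falls were chr14:20965600-21002399 (at least 481-fold), chr3:122121400-122205999 (at least 394-fold) and chr13:40974600-41026910 (at least 392-fold). The smallest of the 10 were chr11:35728600-35795199 (at least 380.2-fold) and chr15:79767400-79802448 (at least 375-fold).

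Among the 10 falls, 5 held a neonatal H3K27me3 island and 1 an mES one. Over all regions with the neonatal value at its floor, the shares were 21.1% and 16.5%. The falls were wide as well, with a median of 51855.5 bp. The H3K4me3 difference ran from -7.94 to -0.85 over the 10, a description only, since an mES H3K4me3 island was a condition of the choice. H3K27me3 was listed at 9 and was higher in neonatal cells at 2, chr8:109124600-109175999 with 2.94 and chr12:102221000-102268399 with 2.58. At the other 7 it stood at 1 neonatal read. Islands and reads did not match at chr9:114416998-114480999, chr10:76551600-76631199 and chr3:122121400-122205999. Each held a neonatal H3K27me3 island, with listed differences of -3.80, -4.40 and -4.42. The listed H3K27me3 differences of the falls spread more widely than those of the rises. With most of the values at 1 neonatal read in both sets, this spread is a description only.

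The adult cells gave values from another library of the mark. The deposited adult tables share the mES or the neonatal library with the one described, so a low shared value sets the direction in both, and the directions are given here as a description only. At regions at least 4-fold higher in neonatal cells with the mES value above its floor, the median adult minus mES difference was 2.39 and the median adult minus neonatal difference was -0.97. At regions at least 4-fold lower with the neonatal value above its floor, the medians were -2.0 for adult minus mES and 1.64 for adult minus neonatal.

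The named regions were chosen with the mES or the neonatal value at its floor, so the sign of a difference against that value was fixed by the choice. At the 10 rises, adult minus neonatal differences, which do not involve the mES value, lay between -2.32 and -0.64. At the 10 falls, adult minus mES differences, which do not involve the neonatal value, lay between -6.94 and -1.08. These differences are not free of the choice either. With the other value at its floor, the rises were ranked by the neonatal value and the falls by the mES value. Negative differences against these high values were therefore favoured. Adult H3K79me2 islands were found in 83.7% of the regions at least 4-fold higher in neonatal cells, near the 83.1% over all regions. They were found in 60.2% of the regions at least 4-fold lower, and in 78.8% of those with the neonatal value above its floor.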

How the data were processed

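Sonicated chromatin was precipitated with 1 antibody per mark and the libraries were amplified by PCR, per the labels' protocols. Per the submitters' processing notes, Bowtie 0.12.8, SICER 1.1, MACS 1.4.2, DiffBind 1.2.0 and build mm9 were used. The authors deposited islands with a score per island (positions alone were used here) and DiffBind tables made pairwise with default settings, per the deposited description. Each table gives a log2 value per library and a fold, their log2 difference. The deposited fold is mES minus neonatal, and its sign was turned here. In the same description, mES H3K79me2 reads came from 2 runs of another study aligned to mm9, and mES reads of the other marks were moved from mm8.

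Neonatal values divided by their column's lowest value gave whole numbers for 100% of values at a tolerance of 0.01. They were taken as reads, with normalisation factors of 0.980 (neonatal) and 1.02 (mES). A floor value may not be the count of reads in its region, since islands of the same cells lay in some floor regions. The sources used here do not state whether input reads were subtracted. The 5 columns of mES values in the tables read were not used. The mES floor was found from the neonatal value and the fold together. Library totals were not analysed here, so depth is known only as reads in listed regions. Since PCR copies carry no molecular identifiers, reads are not independent molecules.

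A region holds an island when they share at least 1 bp. Where several regions of another table overlap, the one sharing most bases was taken. Named regions are the 10 largest rises and falls of at least 2 kb with H3K79me2 and H3K4me3 islands in the cells with the higher value and no read pile-up (2588 and 4919 qualified), and the 5 widest islands of each list. Regions, lists and rules were chosen with earlier results of these data known. Planned gene lists were not used, since no mm9 annotation was at hand. Shares carry 95% Wilson intervals. Python 3.11.15, pandas 2.3.3 and SciPy 1.17.1 were used, and the code was tested on simulated intervals. Alternatives were other thresholds, overlaps, callers and subsets of regions.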

Additional observations from a re-analysis of the deposited data

Results flagged for a closer look

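A signal in data that the comparison does not use lay on chromosome X, where the deposited H3K79me2 table lists 246 regions. Of these, 27.6% (95% Wilson interval 22.4 to 33.5) were higher in neonatal than in mES cells, with a median difference of -1.61. At least 4-fold higher were 51 and at least 4-fold lower 105. On chromosomes 1 to 19 the share of regions higher in neonatal cells ran from 41.0% on chromosome 8 to 55.6% on chromosome 18.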

How the results depend on the processing

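Under the alternatives run, 44 values stayed close to the main one (counts within 1.5 times, shares within their 95% interval) and 32 moved. The order of paired counts did change: with an H3K79me2 island in the cells with the higher value, 2551 regions were at least 4-fold higher and 2559 lower, against 3232 and 2568. With the floor counted as 3 reads, an alternative chosen after seeing the data, they were 2768 and 2323. The cause of each move was not tested beyond what the subset itself fixes. The share of regions higher in neonatal cells, 48.0%, was 46.8% at a false discovery rate under 1e-05, 44.2% with an H3K79me2 island in the cells with the higher value, 40.5% with both values above the floor and 50% after centring on the median, which sets it. Above both floors there were 887 regions at least 4-fold higher, 1111 at least 4-fold lower and 2815 higher at any size. At 2-fold in place of 4-fold, 4262 were lower.

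Overlap of neonatal islands with mES islands (67.1%) was 55.4% when at least 50% of the island had to be covered and 55.0% in the MACS lists. It was 62.4% among equal numbers of the widest islands and 56.3% with both lists cut to islands of at least 5 kb. For mES islands on neonatal ones (52.7%) the values were 45.9%, 19.3%, 59.7% and 60.5% in the same order. With at least 50% of the region covered, 63.5% of regions at least 4-fold higher held neonatal islands and 91.2% of those at least 4-fold lower held mES islands.

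The shares by other marks moved as follows, with the last 3 settings chosen after seeing the data. With MACS lists, the share higher in neonatal cells was 91.7% for H3K27me3 in mES cells only, 46.6% for no H3K27me3, 63.7% for no H3K4me3 and 35.9% for H3K4me3 in both. Above both floors it was 67.2% for H3K27me3 in mES cells only, 38.3% for no H3K27me3 and 31.2% for H3K4me3 in both. Within the central 50% of region widths it was 79.2% for no H3K4me3, 38.6% for H3K4me3 in both and 26.0% for H3K4me3 in mES cells only. With an H3K79me2 island in the cells with the higher value it was 78.0% for H3K27me3 in mES cells only, 39.3% for no H3K27me3, 36.9% for H3K4me3 in both and 22.4% for H3K4me3 in mES cells only.

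The planned gene lists were not run. No paired analysis was possible because each cell type has 1 library per mark, so leaving out a library was not done either. Depth known only inside listed regions, floor values and an mES library from another study limit every difference given here.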

Other observations

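Neighbouring regions tended to share a direction. Of 5831 pairs of neighbouring regions at most 50 kb apart, 73.9% (95% Wilson interval 72.8 to 75.04) were both higher or both lower in neonatal H3K79me2. Among 4910 neighbouring pairs farther apart on a chromosome the share was 53.0% (51.6 to 54.4). How many close regions lie in 1 gene was not analysed here.

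Islands found in 1 cell type only also differed in H3K27me3. Of the neonatal H3K79me2 islands without an mES counterpart, 3.93% overlapped a neonatal and 20.7% an mES H3K27me3 island. Of the mES islands without a neonatal counterpart, 7.23% overlapped a neonatal and 7.30% an mES H3K27me3 island. Shared neonatal islands overlapped an mES H3K27me3 island in 7.31%. H3K4me3 islands in the same cells were found at 18.9% of the neonatal islands without a counterpart and at 42.3% of the mES islands without one.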
